A study of Mus musculus with 4 samples.

Results

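The 6 genes described here, Ly6a, Ly6c1, Ly6c2, Ly6d, Ly6e and Ly6k, were taken by symbol from the 27998 genes listed for each library, and every one was detected. They are neighbours on mouse chromosome 15, within 349.9 kb of one another. On GRCm38 (GENCODE vM21) Ly6d lies at chr15:74762056-74763620, Ly6k at chr15:74796874-74799986, Ly6e at chr15:74955051-74959905, Ly6a at chr15:74994877-74998031, Ly6c1 at chr15:75044018-75048830 and Ly6c2 at chr15:75108158-75111970. Ly6e is on the plus strand and the other 5 are on the minus strand. UMIs over all cells ranged from 389 for Ly6k to 36028 for Ly6c2. Ly6a encodes Sca-1, the surface antigen on which the cells had been sorted, so the difference in Ly6a between gates was built in by the sort. The study asked how the loss of Id1 and Id3, which encode inhibitors of basic helix-loop-helix transcription factors, affects bone marrow vessel cells and blood formation. RNA of single cells was counted with 10x Genomics chemistry, in 4 libraries with 1 library in each group. The library of the Sca-1-positive gate labelled knockout came from Id1-/- Id3-/- mice, and the matching one labelled control from Id1+/+ Id3+/- mice. The Sca-1-negative gate gave a library labelled knockout and one labelled control of the same genotypes. Controls therefore carried a deleted Id3 allele themselves. All mice had the endothelial CDH5-CreER driver, and tamoxifen was injected on 5 consecutive days to delete Id1. The sort kept lineage-negative cells that bore CD31, endomucin and VE-cadherin, and the labels call the Sca-1-positive gate type H vessel cells and the Sca-1-negative gate sinusoidal endothelial cells. No source used here gives the number, age or strain of the mice.

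Ly6 proteins are small cysteine-rich proteins, most of them held on the outer face of the plasma membrane by a glycosylphosphatidylinositol anchor. Sca-1 is known as a marker of mouse haematopoietic stem and progenitor cells and of several lymphocyte populations. Ly6C, made from the closely similar genes Ly6c1 and Ly6c2, marks classical monocytes, neutrophil precursors, plasma cells and subsets of T cells. Ly6D marks early progenitors committed to the B lineage, Ly6E is broadly expressed and induced by interferon, and Ly6K is best known from the testis, where it takes part in sperm function. Ly6a transcription is likewise known to be induced by interferon.

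After removal of cells with fewer than 200 genes or with 10% or more mitochondrial UMIs (unique molecular identifiers, each standing for 1 captured RNA molecule), 3567 of 3641 cell barcodes remained. The Sca-1-positive gate held 1857 cells labelled knockout and 806 labelled control, and the Sca-1-negative gate 553 labelled knockout and 351 labelled control. Library totals ran from 3179782 to 11023619 UMIs, and the median cell held between 5597 and 15428 UMIs. Across libraries, 4 barcodes were shared. The 15 endothelial genes listed were unevenly detected. Of the sort antigens, Pecam1 (CD31) had a UMI in 23.5% of cells and Emcn (endomucin) in 16.9%, but Cdh5 (VE-cadherin) in 0.785%. Egfl7 at 39.4%, Erg at 26.0%, Esam at 22.7% and Tie1 at 16.04% were also found, and the other 8 genes were in 4.49% of cells or fewer, with Stab2 in 0.0841% and Sox17 in none. Ptprc, which encodes the blood cell antigen CD45, had a UMI in 47.1%. Clustering without any gene of the Ly6 family gave 21 clusters, of which 20 were named after blood cell markers and none after endothelial ones. The targeted genes went against the labels in part. Id3 stood at 84.9 UMIs per 1000000 counted (CPM) in the library labelled knockout and 33.0 CPM in the one labelled control of the Sca-1-positive gate, and at 84.8 CPM and 54.7 CPM in those of the Sca-1-negative gate. Id1 stood at 2.99 CPM in the library labelled knockout and 4.08 CPM in the one labelled control of the Sca-1-positive gate, and at 26.3 CPM and 26.1 CPM in those of the Sca-1-negative gate. No source used here says which parts of both genes were deleted, and a tag at the 3′ end outside a deleted part checks nothing. Directions between labels are therefore those of the labels as given.

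With 1 library per group there is no test between groups. Levels below are UMI sums in CPM, and the intervals in brackets are exact 95% intervals that cover counting error only. Between groups, a gene was set apart where its ratio reached 1.5-fold in either direction on at least 20 UMIs over both sums. Across whole libraries the 6 genes fell into separate patterns. Ly6a, Ly6d and Ly6k were higher in the Sca-1-positive gate, Ly6c1 and Ly6c2 were higher in the Sca-1-negative gate, and Ly6e was at close levels in both. That made 3 members higher, Ly6a among them by the sort, and 2 lower of 6 under each label. Among all genes measured, 45.6% were higher and 16.3% lower in the libraries labelled knockout (61.9% in all), and 40.7% higher and 15.6% lower in those labelled control (56.2% in all). A difference of that kind between gates was thus common among all genes, and the median gene was itself shifted by 0.46 (knockout) and 0.38 (control) on the log2 scale. Levels also differed between the blood cell types that each gate held, as the plot of levels by cell class shows.

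**Figure D1:**
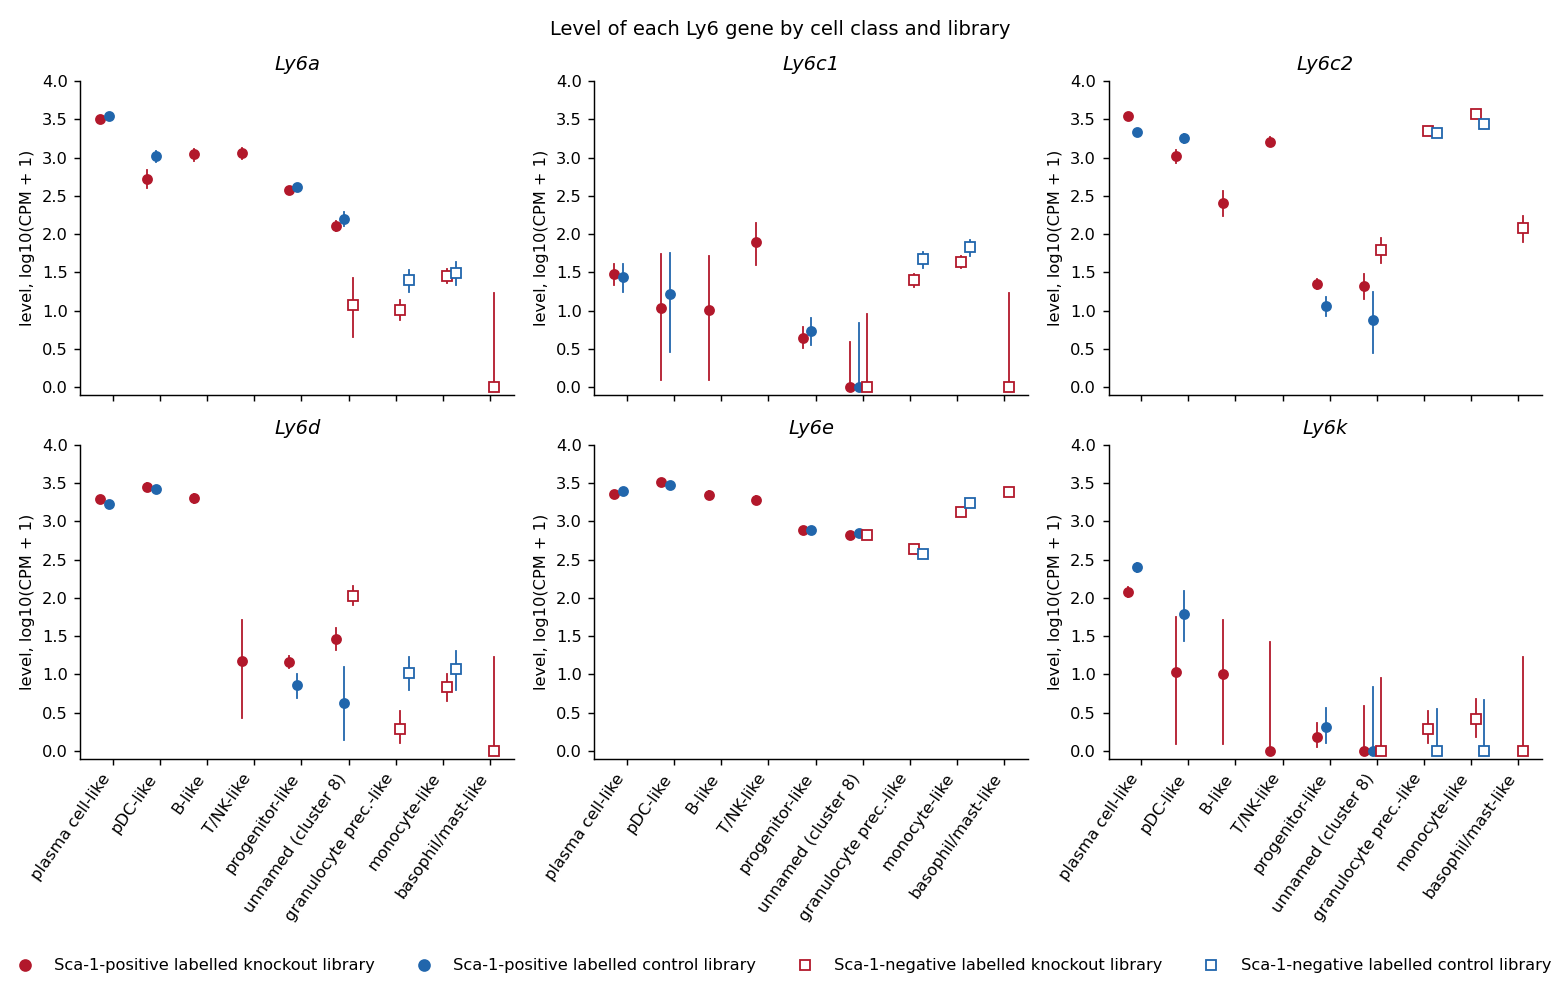
Level of each Ly6 gene (log10 of CPM + 1) in every cell class and library with at least 20 cells. Filled circles are Sca-1-positive and open squares Sca-1-negative libraries, red those labelled knockout and blue those labelled control, and lines are exact 95% counting intervals. Ly6d lies between 1713 and 2818 CPM in plasma cell-like, plasmacytoid dendritic cell (pDC)-like and B-like cells and low elsewhere, whereas Ly6e is high in every class drawn.

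The cell types were unevenly spread over the gates. In the Sca-1-positive gate, progenitor-like cells made up 78.5% of cells labelled knockout and 73.8% of cells labelled control, and plasma cell-like cells, the antibody-secreting cells of the marrow, 8.99% and 13.5%. In the Sca-1-negative gate, granulocyte precursor-like cells made up 46.1% (knockout) and 25.9% (control), and monocyte-like cells 39.4% and 49.6%. These shares depended on the clustering. With the Ly6 genes left in it or at Leiden resolution 2, most of cluster 9, named monocyte-like here, was named granulocyte precursor-like. Granulocyte precursor-like cells then made up 63.8% (knockout) and 27.4% (control), and monocyte-like cells at most 21.9% and 48.1%. The sort can set all of these shares. Plasma cell-like cells held more of the Ly6 RNA of the Sca-1-positive gate than their number would give. They held 12.1% of all UMIs in the library labelled knockout and 14.2% in the one labelled control. They held 54.9% (knockout) and 58.9% (control) of the Ly6a UMIs, 82.0% and 69.0% of the Ly6c2 UMIs, 79.6% and 74.6% of the Ly6d UMIs, and 95.2% and 94.4% of the Ly6k UMIs. Even in a gate sorted for Sca-1, most Ly6a molecules were therefore counted in plasma cell-like cells and not in the more numerous progenitor-like cells.

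**Figure D2:**
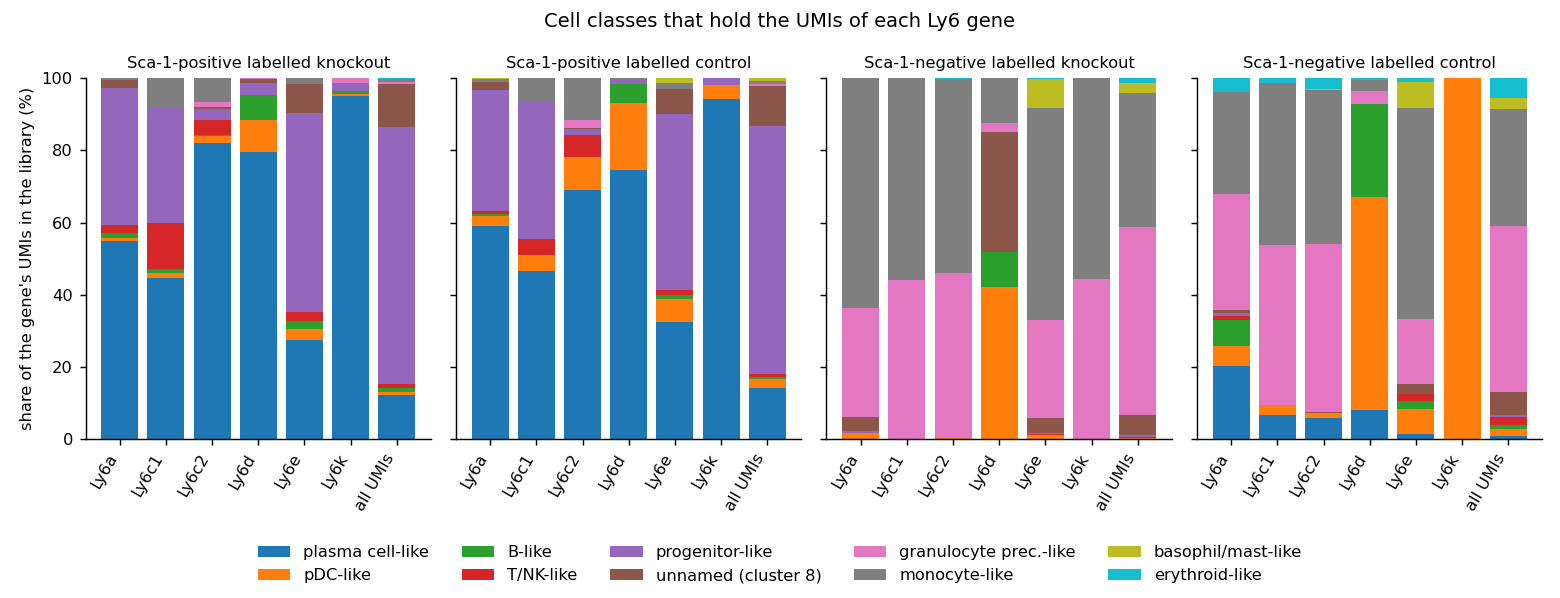
Share (%) of the UMIs of each Ly6 gene, and of all UMIs, that each cell class held in each of the 4 libraries. Plasma cell-like cells (blue, at the foot of each bar) hold 54.9% of Ly6a and 95.2% of Ly6k UMIs in the Sca-1-positive library labelled knockout, against 12.1% of all UMIs.

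Ly6a, the gene of the sort antigen, stood at 701 CPM in the Sca-1-positive library labelled knockout and 15.9 CPM in the Sca-1-negative one. In the libraries labelled control it stood at 848 CPM in the positive gate and 34.3 CPM in the negative gate. The ratio between gates was 44.0 (37.1 to 52.7) under the knockout label and 24.7 (20.5 to 30.2) under the control label, as the sort implies. Within the Sca-1-positive gate plasma cell-like cells were highest. Plasma cell-like cells reached 3195 CPM in the library labelled knockout and 3521 CPM in the one labelled control, with a Ly6a UMI in 166 of 167 and 109 of 109 cells. In the library labelled knockout, T and NK cell-like cells stood at 1133 CPM (966 to 1321) and B lymphoid-like cells at 1097 CPM (910 to 1311), which do not differ beyond counting error. The pDC-like cells followed at 528 CPM (397 to 689), then progenitor-like cells at 374.5 CPM (361 to 388). In the library labelled control, B lymphoid-like cells (10 cells) stood at 1297 CPM (908 to 1796), pDC-like cells at 1036 CPM (869 to 1226), T and NK cell-like cells (10 cells) at 522 CPM (352 to 745) and progenitor-like cells at 416 CPM (396 to 437). The order of pDC-like and T and NK cell-like cells was thus the reverse of that in the library labelled knockout. The lowest large group of the positive gate was cluster 8, an unnamed cluster led by the platelet genes Pf4 and Ppbp, at 126 CPM (knockout) and 157 CPM (control).

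Among the progenitor-like cells Ly6a separated 1 cluster from the other 6. This cluster, number 13, of 34 cells labelled knockout and 20 labelled control, was led by the interferon-induced genes Iigp1, Ifit1 and Rtp4. Its Ly6a level was 1085 CPM (933 to 1256) in the library labelled knockout and 1068 CPM (888 to 1274) in the one labelled control. In the other progenitor-like clusters Ly6a lay between 310.1 and 483 CPM over both libraries, and no interval reached that of cluster 13. Ly6e behaved alike, with 1495 CPM (1315 to 1694) labelled knockout and 1301 CPM (1102 to 1526) labelled control in cluster 13, against 657.5 to 869.8 CPM in the other progenitor-like clusters. A list of 35 interferon-responsive genes, which holds no Ly6 gene, was set beside these values. Without B2m, its summed level was 10395 CPM (knockout) and 10018 CPM (control) in cluster 13 and between 2963 and 3955 CPM in the others. The cells of a cluster were grouped by their RNA, interferon genes included, so the summed level is a description of the cluster and no test. Neither Ly6a nor Ly6e took part in this clustering. The size of this cluster depended on the clustering. In the other clusterings, an alternative chosen after the values were seen, the cluster led by Iigp1 held between 73 and 411 cells. Its Ly6a level then lay between 553 and 974 CPM labelled knockout and between 515 and 878 CPM labelled control. The other progenitor-like cells in those clusterings had at most 355 CPM labelled knockout and 394 CPM labelled control. Those clusterings include the one with the Ly6 genes left in, where Ly6 RNA could itself group the cells. There Ly6a was at 788 CPM labelled knockout and 749.9 CPM labelled control. Between labels cluster 13 did not reach 1.5-fold for either gene, at ratios of 1.02 (0.804 to 1.29) for Ly6a and 1.15 (0.935 to 1.42) for Ly6e, where 22.2% of all genes measured did.

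**Figure D3:**
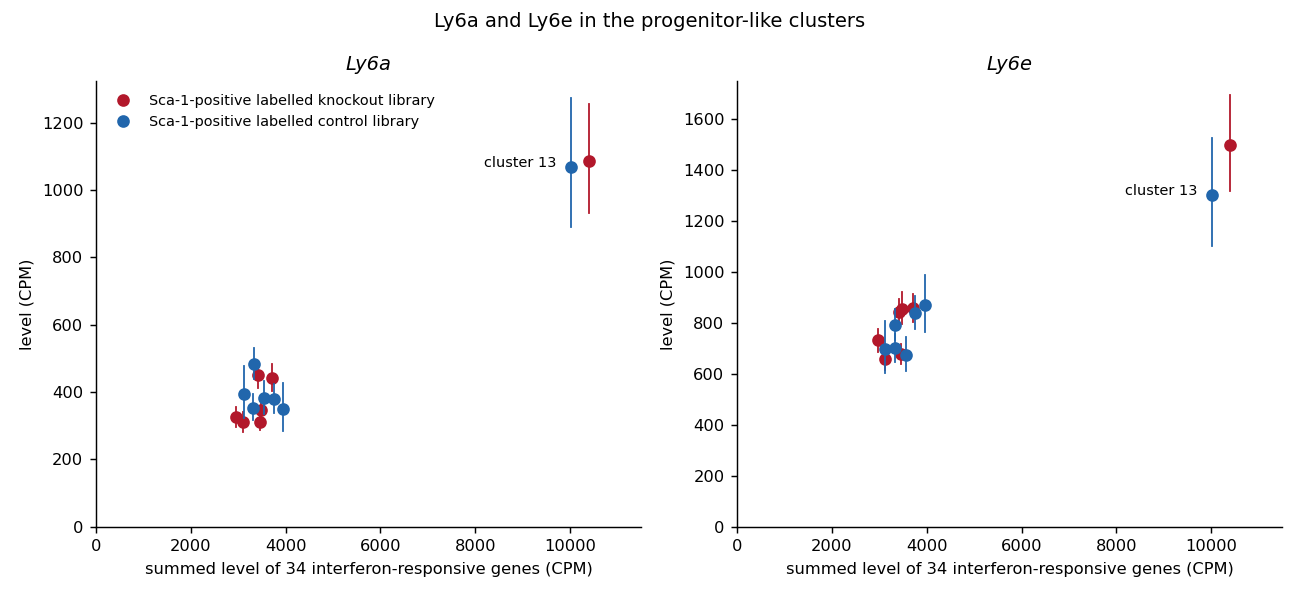
Level (CPM, with exact 95% counting intervals) of Ly6a (left) and Ly6e (right) in the 7 progenitor-like clusters of the Sca-1-positive gate, against the summed level of 34 interferon-responsive genes (CPM). Red points are from the library labelled knockout and blue from the one labelled control. Cluster 13 stands apart on both axes, at 1085 and 1068 CPM of Ly6a, and the other clusters lie close together.

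Ly6e, the interferon-inducible member, was the most evenly spread. Its level was 993 CPM in the Sca-1-positive library labelled knockout and 834 CPM in the Sca-1-negative one, and 1096 CPM and 966 CPM in those labelled control, so that the ratios between gates were 1.19 (1.16 to 1.23) and 1.14 (1.09 to 1.19). Between 92.3% and 96.1% of cells had a Ly6e UMI in each library. In the Sca-1-positive library labelled knockout the order was pDC-like cells at 3258 CPM (2917 to 3627), plasma cell-like cells at 2251 CPM (2171 to 2333), B lymphoid-like cells at 2239 CPM (1969 to 2537), T and NK cell-like cells at 1884 CPM (1667 to 2123) and progenitor-like cells at 772 CPM (752 to 791). Plasma cell-like and B lymphoid-like cells did not differ beyond counting error, nor did B lymphoid-like and T and NK cell-like cells. In the Sca-1-negative library of that label, the highest level among classes with at least 20 cells was 2427 CPM (2229 to 2637) in basophil and mast cell-like cells, before 1319 CPM (1279 to 1361) in monocyte-like cells and 431 CPM (412 to 451) in granulocyte precursor-like cells. Its 4 pDC-like cells had 3488 CPM (2686 to 4455), and the 14 pDC-like cells of the library labelled control in that gate had 3146 CPM (2739 to 3596). The granulocyte precursor-like cells split further. Cluster 6, led by the primary granule genes Mpo and Elane, had 488 CPM labelled knockout and 439 CPM labelled control, and cluster 11, led by the later granule genes Ngp and Camp, had 159 CPM and 117.5 CPM. Erythroid-like cells held few Ly6e UMIs, with 2 UMIs in 11 cells labelled knockout and 34 UMIs in 15 cells labelled control, 28 of them in 1 cell. Ly6e was thus lower in cluster 11 than in cluster 6 under both labels, with intervals that did not overlap.

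Ly6d, the early B-lineage marker, was high in fewer cell types. It stood at 295 CPM in the Sca-1-positive library labelled knockout and 17.7 CPM in the Sca-1-negative one, a ratio of 16.6 (14.1 to 19.8). In the libraries labelled control it stood at 326 CPM in the positive gate and 122 CPM in the negative gate, a ratio of 2.68 (2.40 to 2.998). Without plasma cell-like cells the log2 ratio was 1.94, against 4.05 with them, under the knockout label, and under the control label it turned to -0.22, against 1.42 with them. High levels were in pDC-like cells, with 2818 CPM (2502 to 3163) in the Sca-1-positive library labelled knockout, 2647 CPM (2375 to 2942) in the one labelled control and 3351 CPM (2931 to 3814) in 14 cells of the Sca-1-negative library labelled control. B lymphoid-like cells had 2003 CPM (1748 to 2286) in the library labelled knockout, with a UMI in 30 of 30 cells, and 3423 CPM (2769 to 4184) in 10 cells of the one labelled control, above the pDC-like level of that library. Plasma cell-like cells had 1949 CPM (1875 to 2026) labelled knockout and 1713 CPM (1624 to 1806) labelled control. T and NK cell-like cells had 13.9 CPM from 2 UMIs in 1 cell. Ly6d in pDC-like cells thus differed by less than 1.5-fold between gates. The 14 cells of the Sca-1-negative library labelled control held 59.2% of all its Ly6d UMIs. The library labelled knockout of that gate had only 4 pDC-like and 1 B lymphoid-like cells. A single cell of cluster 8 there held 49 of its 147 Ly6d UMIs.

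Low Ly6d in the progenitor-like cells has to be read against RNA that leaks between droplets. In the library labelled knockout 6.86% of progenitor-like cells had a Ly6d UMI, against 95.8% of plasma cell-like cells, at median depths of 5385 and 7484 UMIs. After each cell was thinned to 2000 UMIs these shares were 3.03% and 87.4%. The progenitor-like level of Ly6d was 0.699% of the plasma cell-like level in the library labelled knockout and 0.361% in the one labelled control. For Ly6c2 it was 0.610% (knockout) and 0.473% (control), and for Ly6k 0.428% and 0.410%. Genes of antibody-secreting cells stood close by. Jchain, which encodes the joining chain of antibodies, was at 0.383% (knockout) and 0.242% (control), Mzb1, a chaperone of antibody assembly, at 0.491% and 0.301%, and Slpi, a protease inhibitor, at 0.603% and 0.431%. Derl3, a gene of protein quality control, was at 0.650% and 0.198%. Jchain UMIs were found in 87.0% (knockout) and 91.8% (control) of progenitor-like cells. The Ly6d, Ly6c2 and Ly6k UMIs of progenitor-like cells thus lay within or just over the range of these genes. The source of these UMIs was not tested, and no expression is claimed from them. Ly6a at 11.7% (knockout) and 11.8% (control), Ly6c1 at 12.02% and 16.7% and Ly6e at 34.3% and 30.9% of their plasma cell-like levels were well above that range, though Ly6c1 rests on 27 and 17 UMIs.

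Ly6c2, one of the pair of Ly6C genes, was high in myeloid cells and in some lymphoid and pDC-like cells. It stood at 509 CPM in the Sca-1-positive library labelled knockout and 2558 CPM in the Sca-1-negative one, and at 447.5 CPM and 2103 CPM in those labelled control. The positive gate was thus at 0.199 (0.193 to 0.205) of the negative gate under the knockout label and at 0.213 (0.203 to 0.223) under the control label. Monocyte-like cells of the negative gate had 3690 CPM labelled knockout and 2773 CPM labelled control, and granulocyte precursor-like cells 2240 CPM and 2119 CPM. In the positive gate plasma cell-like cells had 3466 CPM (knockout) and 2177 CPM (control), and pDC-like cells 1037 CPM and 1772 CPM. T and NK cell-like cells there had 1613 CPM in 42 cells labelled knockout and 2732 CPM in 10 cells labelled control. The monocyte-like cells were a mixture. Cluster 9, led by F13a1, a gene of young monocytes, had 3836 CPM (3763 to 3910) in 159 cells labelled knockout and 3784 CPM (3549 to 4031) in 19 cells labelled control. Cluster 10, led by Fn1 and Lyz2, had 2623 CPM (2450 to 2806) in 54 cells labelled knockout and 2830 CPM (2704 to 2961) in 112 cells labelled control. Cluster 15, led by Ear2 and Fcgr4, genes of nonclassical monocytes, had 134 CPM over 43 cells labelled control. Ly6c2 thus set the nonclassical cluster apart from both others. In cluster 15 Ly6a had no UMI in 43 cells, which allows a share of cells with a UMI of up to 6.98%, while Ly6e was at 2584 CPM. Erythroid-like cells labelled control held 195 Ly6c2 UMIs, of which 185 were in 1 cell.

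Ly6c1 was counted in few UMIs and largely in the same cell types. It stood at 7.71 CPM in the Sca-1-positive library labelled knockout and 28.2 CPM in the Sca-1-negative one, and at 7.98 CPM and 47.5 CPM in those labelled control. The ratios between gates were 0.273 (0.211 to 0.352) and 0.168 (0.118 to 0.236). In the Sca-1-positive gate it was counted at 28.6 CPM (knockout) and 26.2 CPM (control) in plasma cell-like cells and at 76.5 CPM, from 11 UMIs, in T and NK cell-like cells labelled knockout. Progenitor-like cells had 27 UMIs labelled knockout and 17 labelled control, of which cluster 2, led by Nkx2-3 and Sox4, held 14 and 8. Wherever both genes were well counted, Ly6c1 was a small part of their joint UMIs. That part was 1.08% (0.861 to 1.33) labelled knockout and 2.16% (1.64 to 2.79) labelled control in cluster 6, and 0.818% and 1.19% in plasma cell-like cells. It was 4.53% (2.28 to 7.95), from 11 Ly6c1 UMIs, in T and NK cell-like cells labelled knockout. That was above the intervals of clusters 6, 9 and 11 labelled knockout. It overlapped those of cluster 6 labelled control and of cluster 10 under both labels. Reads can be lost or wrongly placed between the pair. The last 400 bases of their longest annotated transcripts were 98.2% identical, and 19.8% of the 57-base stretches in them, the length of the sequenced read, occurred in both genes. No such stretch was shared by any other pair of members. Ly6c1 values are therefore uncertain where Ly6c2 was high.

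Since these 2 genes had the most alike patterns among the members, the 250 bases before their annotated starts are shown, from the RefSeq promoter table (GRCm38.p6, minus strand, 5′ to 3′). Capitals mark CANNTG, the E-box that basic helix-loop-helix factors bind, the class of factors that Id proteins hold back.
Ly6c1, chr15:75048838-75049087: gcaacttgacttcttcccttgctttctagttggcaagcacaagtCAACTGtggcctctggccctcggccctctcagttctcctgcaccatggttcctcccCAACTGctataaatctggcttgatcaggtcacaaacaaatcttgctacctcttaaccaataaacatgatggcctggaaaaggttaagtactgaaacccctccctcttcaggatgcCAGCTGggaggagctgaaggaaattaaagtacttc
Ly6c2, chr15:75111972-75112221: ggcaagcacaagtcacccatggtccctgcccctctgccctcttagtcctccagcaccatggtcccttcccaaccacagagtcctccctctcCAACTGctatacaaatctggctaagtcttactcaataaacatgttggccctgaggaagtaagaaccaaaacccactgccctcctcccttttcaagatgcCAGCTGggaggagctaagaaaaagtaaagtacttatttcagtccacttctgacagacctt
The windows were identical at 167 of 229 aligned columns, or 72.9%. CANNTG, which reads as itself on the other strand, occurred 3 times in the Ly6c1 window and 2 times in the Ly6c2 window. Of the 27025 windows searched, the first listed for each gene, 66.0% hold it. One match in each window was CAGCTG, a form of the same motif, which 12.8% of windows hold. The letters TTCNNNGAA, a form of the STAT element searched on both strands, were found in neither window, and 7.18% of the windows searched hold them. A match is a run of letters and no measured binding site. The table lists 2 promoters for each of these 2 genes, of which only the first is shown and searched. It holds no window for the other 4 members.

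Ly6k, the testis gene, was counted almost wholly in plasma cell-like cells, and there in few of them. It stood at 15.1 CPM in the Sca-1-positive library labelled knockout and 1.09 CPM in the Sca-1-negative one, a ratio of 13.9 (7.13 to 30.9). In the libraries labelled control it stood at 37.8 CPM in the positive gate, and a single UMI in the negative gate gave a ratio of 120.1 (21.3 to 4767). Among plasma cell-like cells it was found in 18 of 167 cells (10.8%) labelled knockout and 9 of 109 cells (8.26%) labelled control. Where present it could be abundant, with 27 UMIs in 1 cell labelled knockout and 98 in 1 cell labelled control. In the plasma cell-like cells labelled control, 98 of 201 Ly6k UMIs were in that cell. Ly6k was thus uneven between single plasma cell-like cells, with no UMI in 149 of 167 and 100 of 109 of them. Reads from the overlapping antisense gene Gm17189 cannot be told apart here unless the counting used strand, which no source used here states.

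The plasma cell-like cells also differed among themselves in Ly6c2. The median cell had 7 Ly6c2 UMIs in the library labelled knockout and 1 in the one labelled control. The middle 50% of cells ran from 1 to 36 UMIs (knockout) and from 0 to 10 UMIs (control), and the highest cells had 354 and 186 UMIs. The top 10% of cells held 51.4% (knockout) and 65.7% (control) of the Ly6c2 UMIs. For Ly6e these shares were 21.2% and 20.4%, for Ly6d 28.2% and 32.1%, and for Ly6a 31.2% and 25.3%. Ly6e was therefore the most even of these genes over plasma cell-like cells, and Ly6c2 the most uneven apart from Ly6k. In cells thinned to 2000 UMIs, Ly6d was found in 91.2% of cells with a Ly6c2 UMI and 79.2% of those without labelled knockout, and in 86.3% and 66.1% labelled control. All members share depth and RNA content within a cell, so that these shares describe the cells only.

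Because cell types and gates largely coincided, gates were also compared within a cluster, in those with at least 10 cells in both libraries, a set chosen after the values were seen. In pDC-like cells labelled control, 25 cells of the Sca-1-positive gate had 1036 CPM of Ly6a and 14 cells of the Sca-1-negative gate had 87.8 CPM, a ratio of 11.8 (5.28 to 32.7). Ly6c2 at 1.33 (1.04 to 1.72), Ly6d at 0.790 (0.666 to 0.938) and Ly6e at 0.946 (0.799 to 1.12) did not reach 1.5-fold. Of 4 members measured, 1 passed, beside 27.3% of all genes, and it was Ly6a, the gene of the sort antigen. In cluster 8, Ly6a was 126 CPM in the positive gate and 10.9 CPM in the negative gate labelled knockout, a ratio of 11.6 (4.87 to 36.2), and 157 CPM against a single UMI labelled control, a ratio of 31.9 (5.58 to 1271). Ly6c2 was lower in the positive gate of cluster 8, at 0.328 (0.185 to 0.581) and 0.0765 (0.0187 to 0.234) of the negative gate, where other cells also held more Ly6c2 RNA. There, basophil and mast cell-like cells labelled knockout, with no UMI of Ly6a, held 118 CPM of Ly6c2, and the part of free RNA in the ratio was not tested. A single cell held all 49 Ly6d UMIs of the negative gate in this cluster. Here 3 of 4 members labelled knockout and 3 of 3 labelled control passed 1.5-fold, beside 33.2% and 34.7% of all genes. Both counts include Ly6a, whose difference was built in by the sort, and the knockout count includes Ly6d, which rests on that single cell. The counts are therefore no result about the family. Ly6e in cluster 8 was at 660.3 CPM in the positive gate and 661.6 CPM in the negative gate labelled knockout, a ratio of 0.998 (0.875 to 1.14). Labelled control it was at 696 CPM in the positive gate and 419 CPM in the negative gate, a ratio of 1.66 (1.31 to 2.12). Ly6a thus differed between gates in both clusters, and Ly6e reached 1.5-fold in cluster 8 labelled control.

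**Figure D4:**
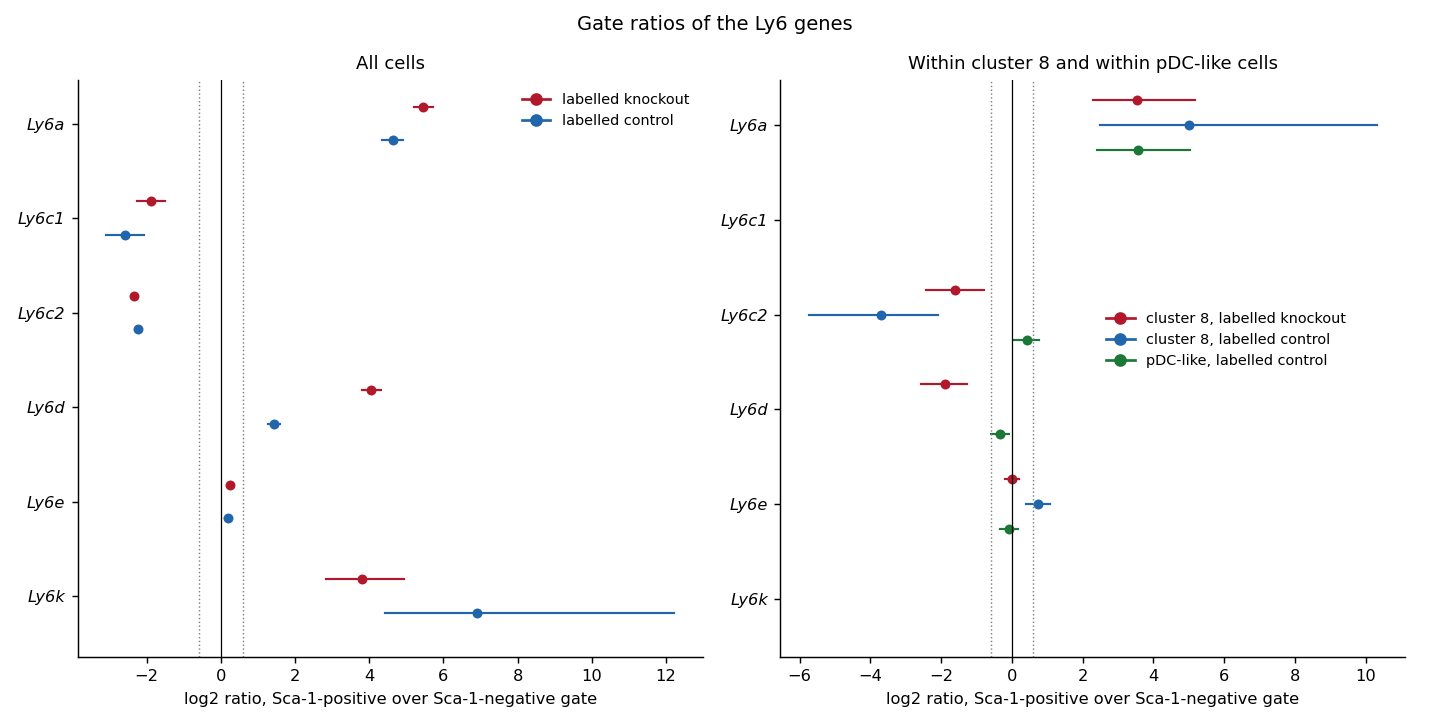
Ratio of the Sca-1-positive over the Sca-1-negative gate (log2) for each Ly6 gene measured on at least 20 UMIs, over all cells (left) and within cluster 8 and pDC-like cells (right), with exact 95% counting intervals. Dotted lines mark 1.5-fold in either direction. Ly6a lies to the right in every comparison, and the pDC-like points of Ly6c2, Ly6d and Ly6e lie between the dotted lines.

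Between labels the Sca-1-positive gate differed little. Ly6a was at 0.827 (0.797 to 0.857), Ly6c1 at 0.966 (0.666 to 1.42), Ly6c2 at 1.14 (1.09 to 1.19), Ly6d at 0.905 (0.854 to 0.959) and Ly6e at 0.905 (0.878 to 0.934) of the control. Ly6k was at 0.399 (0.323 to 0.491). This made 1 of 6 members past 1.5-fold, beside 8.67% of all genes. The Ly6k difference rested largely on 1 cell. Within plasma cell-like cells Ly6k was 119 CPM labelled knockout and 251 CPM labelled control, a ratio of 0.473 (0.382 to 0.586). Without the top cell of each library, an alternative chosen after the values were seen, it was 99.3 CPM and 130.2 CPM, a ratio of 0.763 (0.585 to 0.997), which no longer reached 1.5-fold. With only cells of at least 500 genes and under 5% mitochondrial UMIs, the log2 ratio over the whole gate was -0.46, against -1.33. Without plasma cell-like cells, Ly6c2 over the gate was lower in the library labelled knockout, with a log2 ratio of -0.63, against 0.19 with them.

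Within the cell types of the Sca-1-positive gate, further members passed 1.5-fold. In plasma cell-like cells Ly6c2 was 3466 CPM labelled knockout and 2177 CPM labelled control, a ratio of 1.59 (1.51 to 1.68), and with Ly6k this made 2 of 6 members beside 22.7% of all genes. The median gene was shifted by 0.14 on the log2 scale in these cells, and relative to it the log2 ratio of Ly6c2 was 0.53, short of 1.5-fold. At Leiden resolution 2, with ratios within each cluster added after the values were seen, these cells split into a cluster of 67 cells labelled knockout and 84 labelled control and one of 100 and 25 cells. In the first, led by Jchain and Mzb1, Ly6c2 was 1019 CPM labelled knockout and 618 CPM labelled control, a ratio of 1.65 (1.43 to 1.90). In the other, led by Chst1 and Txndc5, it was 4758 CPM labelled knockout and 6393 CPM labelled control, a ratio of 0.744 (0.700 to 0.792). The direction for the whole class was thus not that of each cluster in it, and the labels held the clusters in different numbers. Over the whole class, Ly6a at 0.907, Ly6d at 1.14 and Ly6e at 0.897 did not reach 1.5-fold. In pDC-like cells, 25 per library, Ly6a was 528 CPM labelled knockout and 1036 CPM labelled control, a ratio of 0.510 (0.365 to 0.704). Ly6c2 there was 1037 CPM and 1772 CPM, a ratio of 0.585 (0.460 to 0.740), while Ly6d at 1.06 (0.907 to 1.25) and Ly6e at 1.09 (0.943 to 1.27) did not reach 1.5-fold. That was 2 of 4 members, both lower, beside 9.13% of all genes lower and 23.6% in either direction. In progenitor-like cells Ly6a at 0.901 (0.848 to 0.958) and Ly6e at 0.996 (0.953 to 1.04) stayed within 1.5-fold. Ly6c2 at 2.05 and Ly6d at 2.20 passed it, 2 of 5 members and both higher, beside 5.07% of all genes higher and 8.2% in either direction. Their levels were low, at 21.1 and 13.6 CPM labelled knockout and 10.3 and 6.18 CPM labelled control. In the same cells Jchain was at 471 CPM labelled knockout and 464 CPM labelled control, and Mzb1 at 19.85 and 17.25 CPM. Slpi was at 47.1 and 43.2 CPM and Derl3 at 4.45 and 1.80 CPM. The part of free RNA in the Ly6c2 and Ly6d ratios was not tested.

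In the Sca-1-negative gate, 3 of 5 members measured were past 1.5-fold, all lower in the library labelled knockout, beside 16.8% of all genes lower and 25.2% in either direction. Ly6a was at 0.465 (0.358 to 0.604), Ly6c1 at 0.594 (0.482 to 0.734) and Ly6d at 0.146 (0.120 to 0.177) of the control, whereas Ly6c2 at 1.22 (1.18 to 1.25) and Ly6e at 0.863 (0.827 to 0.901) were not. The cell types moved with these ratios. The library labelled knockout held 4 pDC-like, 1 B lymphoid-like and 0 plasma cell-like cells and the one labelled control 14, 8 and 2, and 1 of those 2 plasma cell-like cells held all 22 of their Ly6a UMIs, 20.2% of those of the library labelled control. Their part in the ratios over the whole gate was not tested beyond leaving out plasma cell-like cells, without which the log2 ratio of Ly6a was -0.79, against -1.11 with them. Fewer cells of a type and less RNA per cell cannot be told apart in sums over the whole gate. Within pDC-like cells of this gate Ly6d was 3379 CPM (2591 to 4332) labelled knockout and 3351 CPM (2931 to 3814) labelled control. Within B lymphoid-like cells it was 4979 CPM (2722 to 8353) in 1 cell labelled knockout and 3158 CPM (2569 to 3840) in 8 labelled control.

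Within granulocyte precursor-like cells of this gate, Ly6a was 9.25 CPM (6.61 to 12.6) labelled knockout and 23.9 CPM (16.6 to 33.2) labelled control, a ratio of 0.388 (0.240 to 0.629). Ly6c1 was 23.8 CPM and 45.7 CPM, a ratio of 0.522 (0.380 to 0.720), while Ly6c2 at 1.06 (1.02 to 1.10) and Ly6e at 1.15 (1.04 to 1.26) stayed within 1.5-fold. Here 2 of 4 members passed 1.5-fold, both lower, beside 9.42% of all genes lower and 17.4% in either direction, so that Ly6c1 passed it and its near copy Ly6c2 did not. With every cell thinned to 2000 UMIs, only 18 Ly6c1 UMIs labelled knockout and 7 labelled control were left in granulocyte precursor-like cells, and their ratio of 0.918 (0.366 to 2.60) has an interval that also holds the unthinned ratio. Over the whole gate 37 and 25 UMIs were left, a ratio of 0.939 (0.551 to 1.63). Whether the difference holds in thinned cells could not be told from so few UMIs. Before thinning, the median depth of granulocyte precursor-like cells was 16437 UMIs labelled knockout and 15572 labelled control. Ly6a was left in 2 thinned cells of this class labelled knockout and 2 labelled control. Ly6d, at 4 UMIs in granulocyte precursor-like cells labelled knockout and 14 labelled control, moved with Ly6a. The part of such RNA in the Ly6a and Ly6c1 ratios was not tested.

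The monocyte-like cells were mostly of cluster 9 in the library labelled knockout (159 of 218 cells) and of clusters 10 and 15 in the one labelled control (112 and 43 of 174). Over the whole class 2 of 5 members passed 1.5-fold, beside 45.5% of all genes, namely Ly6c1 at 0.644 (0.477 to 0.876) and Ly6d at 0.547 (0.245 to 1.28). Both calls on the Ly6C genes depended on the processing in this class. The log2 ratio of Ly6c1, -0.64, was -0.44 with the Ly6 genes left in the clustering, -0.45 at Leiden resolution 2 and -0.08 in thinned cells, where 19 and 16 UMIs gave a ratio of 0.948 (0.462 to 1.97). That of Ly6c2, 0.41, passed 1.5-fold in these alternatives, at 0.62, 0.61 and 0.65. Within cluster 10, Ly6c2 at 0.927 (0.854 to 1.01) and Ly6e at 0.832 (0.747 to 0.926) stayed within it, and Ly6a, with 4 UMIs labelled knockout and 26 labelled control, was at 0.316 (0.0801 to 0.910). That was 1 of 4 members beside 21.6% of all genes. It rested on 1 cell labelled control with 14 of the 26 UMIs. Without that cell, an alternative chosen after the values were seen, the 16 UMIs of both libraries were under the 20 required, with a ratio of 0.676 (0.159 to 2.23).

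**Figure D5:**
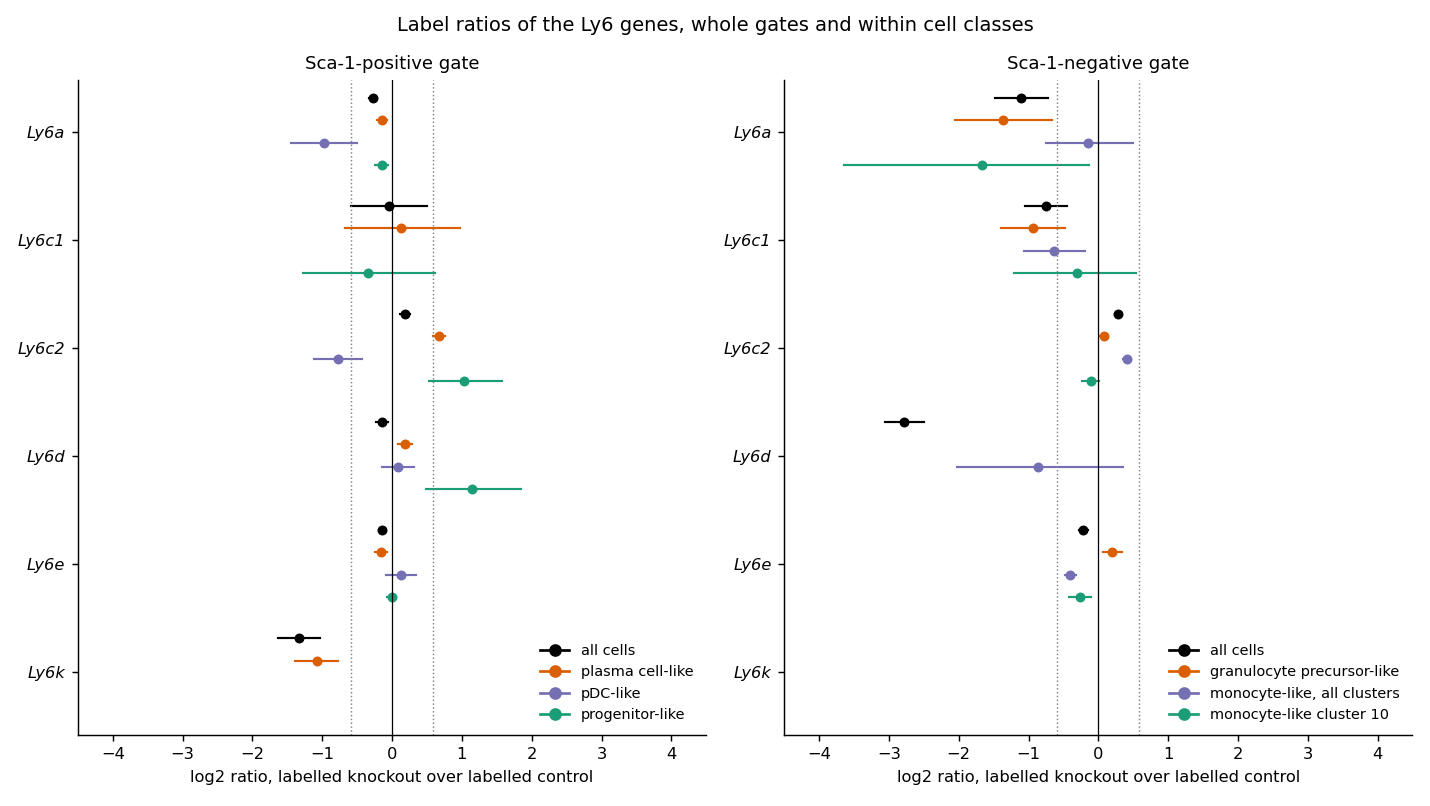
Ratio of the library labelled knockout over the one labelled control (log2) for each Ly6 gene measured on at least 20 UMIs, in the Sca-1-positive gate (left) and the Sca-1-negative gate (right), over all cells and within cell classes, with exact 95% counting intervals. Dotted lines mark 1.5-fold in either direction. Ly6e stays between them throughout, and Ly6d in the Sca-1-negative gate lies farthest to the left, at 0.146.

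The interferon-responsive list gives a setting for Ly6a and Ly6e, the members known as interferon targets. In the Sca-1-positive gate it did not separate the labels, with 0 of 35 genes higher and 1 lower, beside 5.33% and 3.35% of all genes. The median log2 ratio was -0.04 beside -0.01 for all genes. In the Sca-1-negative gate 0 of 33 were higher and 26 lower labelled knockout, beside 16.8% of all genes lower, with medians of -1.42 and 0.01. The labels held the monocyte-like clusters in different numbers. Without B2m, the list summed to 2220.5 CPM in cluster 9 and 8775.5 CPM in cluster 10 labelled knockout. Labelled control it was 11288 CPM in cluster 10 and 5327.7 CPM in cluster 15. Cell types and RNA per cell cannot be told apart in the gate sums. Within cluster 10, 1 listed gene was higher and 22 lower of 31, beside 12.4% of all genes lower, with a median of -1.06 beside 0.02. At Leiden resolution 2, 11 cells of cluster 10 formed a cluster of their own led by Ifi204, Ms4a4c and Mnda, with Ifit3 and Isg15 among its genes, and all 11 were labelled control. Without them, an alternative chosen after the values were seen, 1 gene was higher and 5 lower of 21, with a median of -0.22 beside 0.04. Of all genes 10.7% were then lower. Only cells labelled control were left out, from a cluster with interferon genes among its leading genes, so a smaller shift was built in. The 31 and 21 genes measured also differ, so the medians cannot be set side by side. Granulocyte precursor-like cells showed no such shift, with 4 higher and 0 lower of 23, beside 7.98% and 9.42% of all genes, and a median of 0.22 beside 0.03. Ly6e in cluster 10 was at 1478 CPM labelled knockout and 1777 CPM labelled control. Ly6a in granulocyte precursor-like cells rested on 40 UMIs labelled knockout and 35 labelled control. A link of Ly6a or Ly6e to the list was not tested. Between gates 30 of 35 genes were higher and 1 lower in the Sca-1-positive library labelled knockout, beside 45.6% and 16.3% of all genes. The median was 1.75 beside 0.46. In the one labelled control 15 of 34 were higher and 8 lower, beside 40.7% and 15.6%, with a median of 0.46 beside 0.38.

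The genes with the most alike pattern were ranked by Pearson's r of log2(CPM + 10) over the 16 sums by cell class and library with at least 20 cells, among 5940 genes with at least 500 UMIs. Sums of a library share its depth and its free RNA, so r only describes. For Ly6a the closest were Cbx7 (r = 0.93), Jchain (0.93), Plekha2 (0.93) and Pfdn5 (0.91). For Ly6d they were Fcrla (0.98), a B-lineage gene related to Fc receptors, Sdc4 (0.93), Prr5 (0.93) and Pafah1b3 (0.90). For Ly6c2 they were Cyba (0.92), a subunit of the phagocyte oxidase, Vsir (0.91), Trappc2l (0.88) and AI413582 (0.88), and for Ly6c1 they were Ly6c2 (0.86), Ncf4 (0.84), another oxidase subunit, Vsir (0.82) and Tank (0.80). For Ly6e they were Creb3 (0.93), Itm2c (0.90), Cytip (0.89) and Tmem192 (0.88). For Ly6k they were Epcam (0.95), Herpud1 (0.94), a gene of the endoplasmic reticulum stress response, Tmem214 (0.93) and Txndc5 (0.92), a protein disulfide isomerase. Among the members themselves the highest r after the Ly6C pair was 0.77 for Ly6d and Ly6k, and the lowest was 0.02 for Ly6c1 and Ly6d. Pairs of members thus ranged from r = 0.86 for the Ly6C genes, between which reads can be wrongly placed, to 0.02 for Ly6c1 and Ly6d.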

How the data were processed

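The deposited files hold raw UMI counts per gene and cell for 4 mouse libraries. Per the submitters' processing notes they were made with Cell Ranger and Seurat on mm10, and per the labels' protocols the read was 57 bases long. No source used here gives versions, strand setting or the authors' cell filter. Of these deposited counts, cells with fewer than 200 genes or 10% or more mitochondrial UMIs were left out. The remaining cells were clustered with scanpy 1.11.5 (10000 UMIs per cell, log scale, 2000 variable genes without Ly6/uPAR family genes, 30 components, 15 neighbours, Leiden resolution 1). A cluster was named where it detected and raised more markers of 1 class than of any other. Doublets were kept. Scrublet marked 1 to 6 cells per library, and 9 to 28 held both Xist and Y-linked UMIs. UMI sums were scaled to CPM, with exact Poisson, binomial and Clopper-Pearson 95% intervals, which cover counting error only. A count of 0 allows up to 3 UMIs or cells. Log2 ratios added 0.5 UMIs to each sum. The ratio and interval code was tested on simulated data. Alternatives changed the cell filter, scaling, depth, doublets, clustering and thresholds. No test between groups was made, since each had 1 library. Genes named beside the members were the 4 with the highest correlation to each, other family genes with at least 100 UMIs and the interferon-responsive list. The members and lists were chosen with earlier results of these data known. Gene positions are those of GENCODE vM21 on GRCm38.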

Additional observations from a re-analysis of the deposited data

How the results depend on the processing

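No paired analysis was possible because each group has 1 library and no test was made. Members past 1.5-fold between gates labelled control numbered 3 in place of 5 without plasma cell-like cells, where the log2 ratio of Ly6d was -0.22 in place of 1.42, and those of the Sca-1-positive gate between labels numbered 0 under a stricter cell filter (500 genes, 5% mitochondrial UMIs), and 2 without plasma cell-like cells, in place of 1. Under that cell filter the log2 ratio of Ly6k was -0.46 in place of -1.33. All genes past the threshold numbered 4001 in place of 6350 between gates labelled control at 2-fold, 563 (at least 50 UMIs) and 312 (2-fold) in place of 1062 between labels in the Sca-1-positive gate, and 1065 in place of 2668 in the Sca-1-negative gate at 2-fold. The cause of these shifts was not tested, beyond the stricter threshold itself. Within 5 cell classes, 10 of 24 comparisons of a member in a class passed 1.5-fold, beside 22.4% of such comparisons over all genes. Under the alternatives 7 to 12 of 19 to 28 passed. These included each cell thinned to 2000 UMIs, Ly6 genes left in the clustering and Leiden resolution 2. The 22.4% belongs to the main setting only, so the counts under the alternatives cannot be set against it. Thinning raised the share of all genes past 1.5-fold in granulocyte precursor-like cells and left it nearly unchanged in monocyte-like cells. Of the counts recomputed, 79 stayed within 1.5 times the main count and 7 moved, and of the single ratios 214 stayed within counting error, 78 moved and 1 reversed. Only a ratio past 1.5-fold was counted as reversed, so that Ly6c2 between labels in the Sca-1-positive gate, at -0.63 without plasma cell-like cells in place of 0.19, is not among them. The planned totals without antibody genes left out only Jchain and haemoglobin genes, 9 in all. Levels near 1 CPM rest on few UMIs and are limited by depth.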

Other observations

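Other genes of the Ly6/uPAR family were seen in the same cells. Of 33 listed, 30 were found by symbol, 12 of them with no UMI, 13 with fewer than 100 UMIs, and 5 with more. Ly6i, which lies in the same region as the Ly6C genes, had 110.6 CPM in plasma cell-like cells labelled knockout and 97.5 CPM in those labelled control. Unlike Ly6c2 it had no UMI in T and NK cell-like cells labelled knockout, and it stood at 169 CPM (102 to 264) in cluster 15 labelled control, where Ly6c2 was low. In monocyte-like cluster 10 it had 73.9 CPM (47.4 to 110.0) labelled knockout and 180.1 CPM (149 to 215) labelled control, and in the late granulocyte precursor-like cluster 11 it had 20.2 CPM (11.3 to 33.3) and 145 CPM (105 to 196). In the same cluster 11, Ly6g, the antigen that marks maturing neutrophils, had 35.0 CPM (22.9 to 51.2) labelled knockout and 332 CPM (269 to 405) labelled control. Cd177, a neutrophil surface protein, had 266 CPM (230 to 306) and 747 CPM (650.4 to 853), and Plaur, the urokinase receptor, 71.3 CPM (53.4 to 93.3) and 176 CPM (131 to 232). All 4 were lower in cluster 11 labelled knockout, in 52 cells against 26 cells labelled control. There 10.6% of all genes measured were at least 1.5-fold lower and 29.2% higher, 39.9% in either direction. The median gene was shifted by 0.27 on the log2 scale, and median depths were 14073 UMIs labelled knockout and 10176 labelled control. The labels held different cells of cluster 11. At Leiden resolution 2, 46 of its cells labelled knockout and 8 labelled control fell in a cluster led by Fcnb and Elane, genes of earlier stages, and 6 and 18 in one led by Ltf and Lcn2, genes of later stages. Within the later one, ratios added after the values were seen were 0.330 (0.174 to 0.581) for Ly6g, 0.170 (0.0336 to 0.533) for Ly6i, 0.961 (0.737 to 1.25) for Cd177 and 0.895 (0.497 to 1.55) for Plaur. Within the earlier one Ly6g had 12 UMIs labelled knockout and 0 labelled control, and the intervals of all 4 ratios held equal levels. That of Ly6g ran from 0.520 without an upper limit. Ly6c2 in cluster 11 went the other way without reaching 1.5-fold, at 2676 CPM labelled knockout and 1812 CPM labelled control. Cd59a, which encodes an inhibitor of the complement attack complex, was counted at 12.1 to 43.0 CPM in progenitor-like clusters of the Sca-1-positive gate. It also had 22.6 CPM (knockout) and 17.5 CPM (control) in plasma cell-like cells and 28.2 CPM in cluster 8 of the Sca-1-negative library labelled knockout. Over whole libraries it stood at 25.7 CPM in the Sca-1-positive library labelled knockout and 4.70 CPM in the Sca-1-negative one, and at 28.2 CPM and 5.35 CPM in those labelled control.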
